A study of Gallus gallus with 5 samples.

Results

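MT3 and MT4 are the metallothionein genes measured here in liver from broiler breeder hens, which are kept to lay the eggs that hatch into meat chickens. They were taken as the rows of the deposited count table whose symbol is MT3 or MT4, which are 2 of its 6286 entries. RNA was sequenced from 2 hens on ad libitum feed (FF) and 3 hens on a restricted feed allowance (RF), the treatments having begun when the hens were 38 weeks old. All 5 were broiler breeder hens, each library came from a different hen by the labels' hen numbers, and the labels name no strain, genotype or other agent. The extraction protocol speaks of 3 hens per group, and the other FF hen was not analysed here.

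Metallothioneins are small, cysteine-rich proteins that hold zinc and copper in the cytoplasm and also bind cadmium. In vertebrates their transcription is switched on by zinc through the metal-responsive factor MTF1, and in rodent liver also by glucocorticoids, by interleukin-6 and by fasting. The liver is a main site of their synthesis, where they buffer zinc. In mammals the symbols MT3 and MT4 stand for metallothioneins best known from brain and from stratified epithelium, so the chicken symbols should not be read as those tissue forms. The RefSeq table of assembly GRCg7b gives the synonym MT1 for chicken MT3 and the synonyms MT2A and MT4L for chicken MT4. It places the genes next to each other with 0 annotated genes between them.

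Library totals ran from 2666609 to 4622392 estimated counts, and FF2 had the lowest. FF2 also stood apart from the other libraries on the first principal component of log2 expression, at 44.5. RF2 lay at the other end, at -28.0, with FF1, RF1 and RF3 between them, at -1.75, -11.0 and -3.81. FF2 and RF2, the hens with the least and the most MT3 and MT4, were thus also the ends of the main axis of all tested genes. Hepatocyte markers summed to 204689 and 207567 CPM (counts per 1000000 counts of the scaled library) in FF and to between 169201 and 248270 CPM in RF, with 11 of the 12 markers in the table (of 15 listed) above 0 in each hen. ALB, a defining marker of hepatocytes, was listed at 0 in all 5 hens, so an entry at 0 is not read as absence of the transcript. Neither MT3 nor MT4 had a 0 in any hen.

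MT4 lay lower in the FF livers than in the RF livers, and so did MT3, with no overlap between the groups, but neither passed the test across all genes. MT4 had 5673 and 732 estimated counts in FF1 and FF2, and 6210, 24867 and 13974 in RF1, RF2 and RF3. Scaled for library size, that was 1164 and 266 CPM in FF1 and FF2, and 1462, 7304 and 3265 CPM in RF1, RF2 and RF3. Both FF hens were below all 3 RF hens, yet FF1 was close to RF1, the lowest RF hen, which stood 1.26-fold above it. RF2 was 27.4-fold above FF2, the largest gap between any pair of hens.

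MT3 had 100 and 23 estimated counts in FF1 and FF2, and 171, 771 and 223 in RF1, RF2 and RF3. These correspond to 20.5 and 8.36 CPM in FF1 and FF2, and to 40.3, 226 and 52.1 CPM in RF1, RF2 and RF3. Again both FF hens were the lowest, and RF2 stood far above the others, 27.1-fold above FF2. RF1, the lowest RF hen, was 1.96-fold above FF1 in this gene. The lowest MT3 value rests on 23 counts, a share of 8.63e-04% of the library with a 95% Wilson interval of 5.75e-04% to 0.00129%, which covers counting error alone. For MT4 the smallest share was 0.0275% in FF2 (95% Wilson interval 0.0255% to 0.0295%) and the largest 0.741% in RF2 (0.731% to 0.750%), so these intervals were far apart. The MT4 shares of FF1 (0.123%, 0.120% to 0.126%) and RF1 (0.138%, 0.135% to 0.142%) were close but also had separate intervals. These intervals too cover counting error alone and leave out the variation between hens, so they do not bear on the feeding groups.

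**Figure D1:**
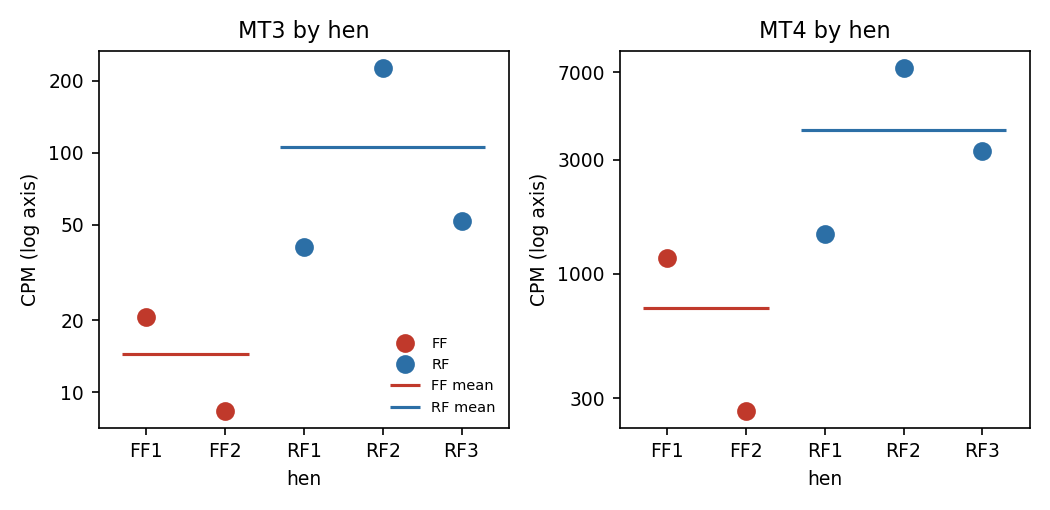
Expression of MT3 (left) and MT4 (right) in each hen, in CPM on a log axis. Each point is 1 hen and each line the mean of its group; both FF hens lie below all 3 RF hens in each panel, and RF2 is the highest hen in both.

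MT3 averaged 14.4 ± 8.59 CPM in FF (SD, n = 2) and 106 ± 104 CPM in RF (SD, n = 3). Its log2 fold change, FF over RF, was -2.84 ± 0.86 (SE), with an unadjusted p of 0.0115 and an adjusted p of 0.431 by edgeR's quasi-likelihood test with Benjamini-Hochberg adjustment over 4309 genes. MT4 averaged 715 ± 635 CPM in FF (SD, n = 2) and 4010 ± 2992 CPM in RF (SD, n = 3). Its log2 fold change was -2.49 ± 0.85 (SE), with an unadjusted p of 0.0209 and an adjusted p of 0.469 by the same edgeR test. In RF the SD between hens was close to the mean itself for MT3, and in FF close to it for MT4. A log2 fold change further below 0 was found in 16 genes for MT3 and in 25 genes for MT4, while by size of p MT3 ranked 113 and MT4 192 of the 4309 genes.

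Because the genes are paralogues, and how reads that fit both were counted is not given in the sources used here, the value of each alone is uncertain. Their summed counts do not depend on how reads were divided between them, though they would still depend on whether such reads were dropped or counted for both. The sum stood at 1184 and 275 CPM in FF1 and FF2, and at 1502, 7531 and 3318 CPM in RF1, RF2 and RF3. With the sum in place of the separate genes, the log2 fold change was -2.50 ± 0.85 (SE) and the edgeR quasi-likelihood adjusted p was 0.465. The sum therefore followed MT4, which held nearly all of its counts.

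Of the 2 genes, 0 were called by edgeR's quasi-likelihood test (adjusted p under 0.05), where 0.0464% of all tested genes were called in either direction and 0% as lower in FF. At an unadjusted p under 0.05 both were lower in FF, against a background of 4.94% of tested genes lower and 4.41% higher. DESeq2 called both as lower in FF, with an adjusted p of 0.00951 for MT3 and 0.0307 for MT4, against 1.11% of the genes it tested. The edgeR likelihood ratio test called MT3 alone (adjusted p = 0.0429, and 0.128 for MT4), against 1.07% of tested genes called lower. FF and RF did not overlap in either gene, and 13.9% of tested genes had both FF hens below all RF hens. Both had a log2 fold change below 0, as did 49.4% of tested genes, and the median over all tested genes was 0.01.

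The size of the difference depended on single hens. Without RF2 it shrank to -1.65 ± 0.48 for MT3 and -1.72 ± 0.74 for MT4 (log2 fold change ± SE; edgeR quasi-likelihood adjusted p = 0.598 and 0.896). Without FF1, which left FF2 alone in its group with a spread assumed like that of the RF hens, it grew to -3.66 ± 1.22 for MT3 and -3.92 ± 1.02 for MT4 (adjusted p = 0.156 and 0.109, edgeR quasi-likelihood). Without FF2, the library that stood apart, MT4 lay at -1.77 ± 0.89 and MT3 at -2.35 ± 1.06 (edgeR quasi-likelihood adjusted p = 0.767 and 0.747). Both genes stayed below 0 in each of these fits and in those without RF1 or RF3. Since both FF hens lay below all RF hens, leaving out any single hen could hardly have changed that sign.

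**Figure D2:**
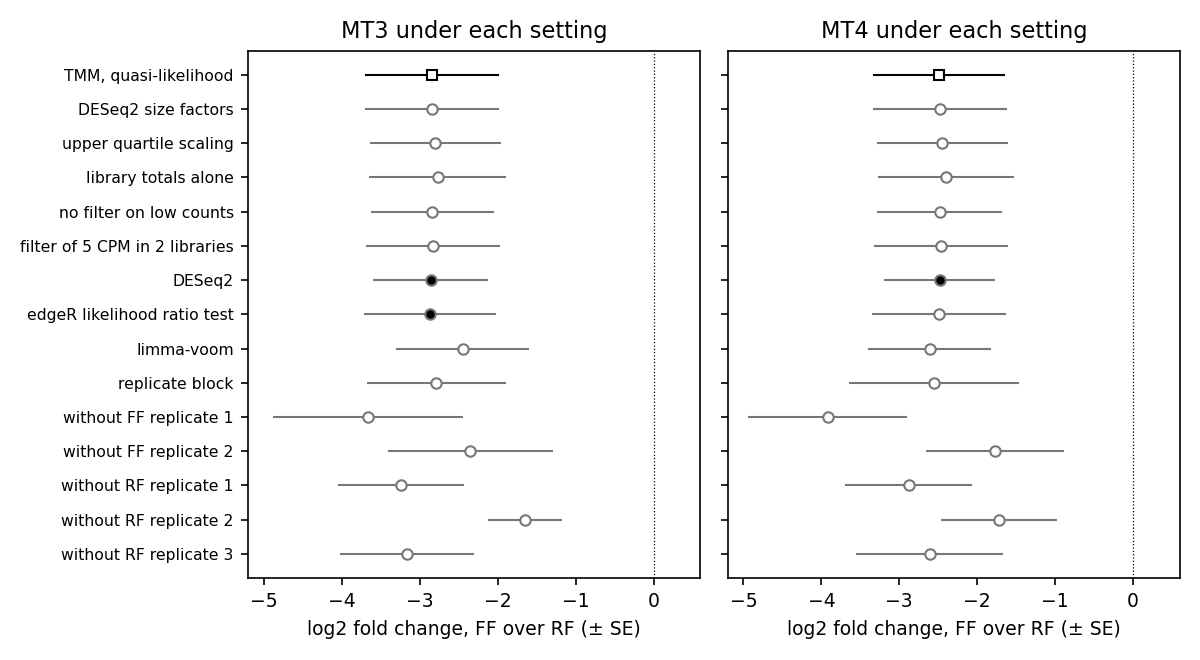
Log2 fold change of MT3 (left) and MT4 (right), FF over RF, under each setting named on the vertical axis. Bars are 1 SE, and filled points passed at an adjusted p under 0.05; all estimates lie below 0, from -3.66 to -1.65 for MT3 and from -3.92 to -1.72 for MT4.

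The neighbouring genes ran in parallel across the hens. Both had the same order of hens, RF2 highest, then RF3, RF1 and FF1, with FF2 lowest. This order was found in 80 of the 4309 tested genes (1.86%), the pair included. Relative to its mean over the 5 hens on the log2 CPM scale, MT3 stood at -0.89 in FF1, -2.14 in FF2, 0.06 in RF1, 2.54 in RF2 and 0.43 in RF3. MT4 stood at -0.47 in FF1, -2.59 in FF2, -0.14 in RF1, 2.18 in RF2 and 1.02 in RF3. The profiles were closest in RF1 and farthest apart in RF3.

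The root mean square difference between these centred profiles was 0.43, against a median of 1.58 from MT3 to the other tested genes and 1.63 from MT4 to them. Of the 4308 other genes, 0 were closer to MT3 than MT4 was, and 0 were closer to MT4 than MT3 was. This distance depends on the size of the swings between hens as well as on their pattern. Only 39 tested genes had a larger SD over the hens than MT3, and 34 a larger SD than MT4. Few genes could therefore come close, and the counts of 0 partly restate the large spread of both. With each hen set against its own group mean, which removes the difference between the feeding groups, the distance was again 0.43. By that measure 20 genes were closer to MT3 than MT4 was, and 28 were closer to MT4 than MT3 was. The closeness is a description over 5 hens that share their libraries, and reads assigned to the wrong paralogue would add to it, which was not tested.

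The ratio of the pair moved much less than either gene. There were 56.7 and 31.8 MT4 counts per MT3 count in FF1 and FF2, and 36.3, 32.3 and 62.7 in RF1, RF2 and RF3. FF1 and RF3 had the high ratios and the other hens the low ones, so the groups overlapped. The log2 ratio of MT3 to MT4 averaged -5.35 ± 0.62 in FF (SD, n = 2) and -5.38 ± 0.51 in RF (SD, n = 3). The difference, FF minus RF, was 0.03 (two-sided exact permutation test over the 10 arrangements of the hens, p = 1), where the smallest p that this design allows is 0.1. This test could therefore not have shown a difference between the genes in their relation to feeding. Over all 5 hens the log2 ratio spanned 1.05, while FF2, the lowest hen, minus RF2, the highest, was -4.68 for MT3 and -4.78 for MT4 on the log2 CPM scale. The counts were not scaled to transcript length, so the ratio does not give the relative abundance of the transcripts.

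**Figure D3:**
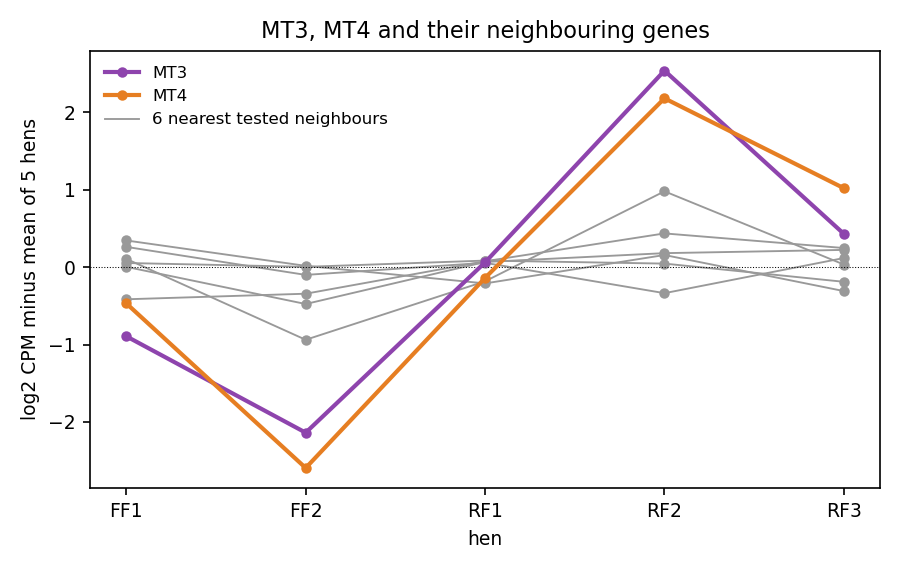
Log2 CPM in each hen minus the gene's mean over the 5 hens, for MT3, MT4 and the 6 nearest tested genes around them. MT3 and MT4 run together between -2.59 in FF2 and 2.54 in RF2, while the neighbours (grey) stay nearer to 0.

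The genes around the pair did not share its range. In the RefSeq gene order, NUP93, a nuclear pore scaffold component, lies next to MT4, and BBS2, a subunit of the BBSome of primary cilia, lies next to MT3. NUP93 had 20.7 and 16.0 CPM in FF1 and FF2, and 17.9, 13.5 and 18.7 CPM in RF1, RF2 and RF3. The change in NUP93 was 0.14 ± 0.31 on the log2 scale (edgeR quasi-likelihood, adjusted p = 0.897), and it changed sign without FF1 (-0.07). BBS2 had 38.4 and 40.4 CPM in FF1 and FF2, and 54.1, 69.6 and 61.0 CPM in RF1, RF2 and RF3. It too had both FF hens below all RF hens, with a value of -0.65 ± 0.26 on the log2 scale (edgeR quasi-likelihood, adjusted p = 0.516).

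Farther out on the side of MT4, TMEM170A lay at -0.37 ± 0.27, and CFDP1, a chromatin-associated protein, at -0.69 ± 0.46 (-1.32 without FF1). CFDP1 was the neighbour whose profile came nearest to the pair, at a root mean square difference of 1.01 from their mean, with 129 CPM in RF2, the highest, and 33.8 CPM in FF2, the lowest. On the side of MT3, NUDT21, a subunit of the cleavage factor for messenger RNA 3′ ends, lay at 0.04 ± 0.25, and CBFB, the partner of the RUNX transcription factors, at 0.30 ± 0.28. Of these 6 neighbours 0 were called by edgeR's quasi-likelihood test, and 0 by DESeq2 as well. Among all tested genes edgeR called 0.0464%, and DESeq2 called 1.11% as lower. At an unadjusted p under 0.05 by the edgeR test, 1, BBS2, was lower in FF, as were 4.94% of all tested genes. TMEM170A, like BBS2, had both FF hens below all RF hens, as did 13.9% of all tested genes. Their SDs over the 5 hens ran from 0.11 to 0.69 on the log2 CPM scale.

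That spread was far larger in the metallothioneins. The SD of log2 CPM over the 5 hens was 1.73 for MT3 and 1.79 for MT4, against a median of 0.40 over the tested genes. A larger SD was found in 39 and in 34 of the 4309 genes. Among genes whose mean log2 CPM lay within 0.5 of the member's own, 3 of 829 had a larger SD than MT3, and 1 of 66 a larger SD than MT4. That comparison was limited to genes of like CPM, not per length, because genes of low count vary more by counting alone.

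Much of the spread lay within the feeding groups. FF1 was above FF2 by 1.24 log2 units in MT3 and by 2.13 in MT4, where the median tested gene had an FF gap of 0.52. The RF hens spanned 2.48 log2 units in MT3 and 2.32 in MT4, where the median gene spanned 0.56. Expressed as folds, RF2 was 5.63-fold above RF1 in MT3 and 4.997-fold above it in MT4, and FF1 was 2.45-fold above FF2 in MT3 and 4.37-fold above it in MT4. Within groups, edgeR's estimate of the biological coefficient of variation per gene was 56.7% for MT3 and 58.7% for MT4 against a median of 29.1%. The difference between the group means thus stood beside differences of like size between hens on the same feed.

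**Figure D4:**
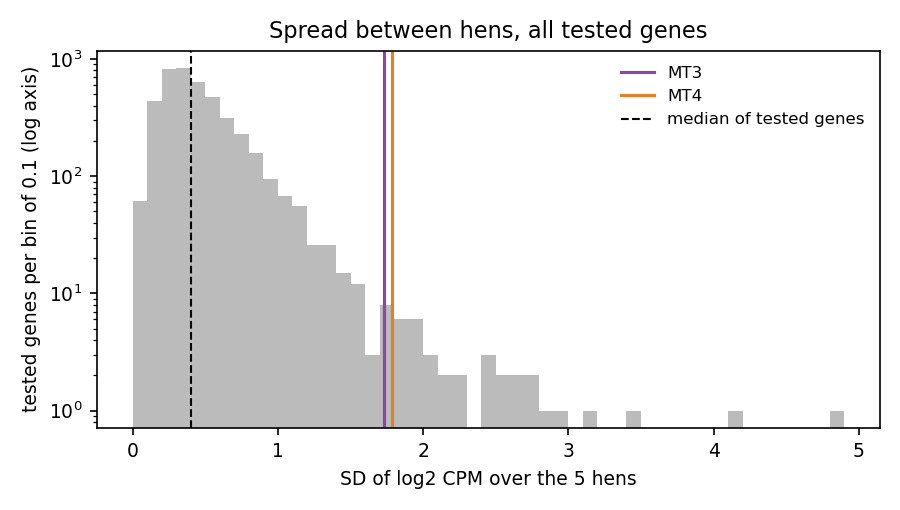
Number of tested genes, on a log axis, by the SD of their log2 CPM over the 5 hens. Vertical lines mark MT3 (1.73), MT4 (1.79) and the median of the tested genes (0.40, dashed).

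CISH, an inhibitor of cytokine and growth hormone receptor signalling, was the tested gene whose profile lay nearest to the mean of the pair, at a root mean square difference of 0.50 over the 5 hens. It had 165 and 50.9 CPM in FF1 and FF2, and 324, 625 and 434 CPM in RF1, RF2 and RF3, in the same order of hens as the metallothioneins. The next nearest were C18H17ORF106 (0.61), the actin-bundling protein gene FSCN1 (0.66), the uracil-DNA glycosylase gene UNG (0.67) and MARCKSL1 (0.67), which encodes a membrane-associated actin regulator. All 4 were lowest in FF2, and FSCN1, C18H17ORF106 and MARCKSL1 were highest in RF2. Their log2 fold changes were -2.33 ± 0.48 for C18H17ORF106, -1.29 ± 0.62 for FSCN1, -1.65 ± 0.69 for UNG and -1.60 ± 0.49 for MARCKSL1. Without FF1 and without FF2, FSCN1 lay at -2.55 and -0.68, UNG at -3.80 and -0.91 and CISH at -3.18 and -1.47, and C18H17ORF106 lay at -3.21 without FF1. In FF2, UNG, C18H17ORF106 and FSCN1 had only 1.45, 2.18 and 3.27 CPM. Their fold changes without FF1, which leave FF2 alone in its group, thus rest on few counts. These 5 genes were picked by a profile that already holds FF below RF, so the direction and size of their fold changes follow largely from that choice and are given as a description.

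Genes of zinc and copper handling showed nothing like the range of the metallothioneins. Of 39 listed genes 9 were in the table and all 9 were tested. The quasi-likelihood test of edgeR called 0 (0 at an unadjusted p under 0.05, and 0 by DESeq2). Among all tested genes edgeR called 0.0464%, and at an unadjusted p under 0.05 placed 4.94% lower and 4.41% higher. DESeq2 called 1.11% as lower, so 0 of 9 is near these shares. Of the 9, 7 lay below 0, and the median log2 fold change was -0.08, against 0.01 for all tested genes. That median was -0.41 without FF1 and 0.02 with library totals alone. MTF1, the zinc sensor that drives metallothionein transcription, had 24.4 and 32.7 CPM in FF1 and FF2, and 35.5, 22.9 and 27.1 CPM in RF1, RF2 and RF3, and is named here for its role after its values were seen. RF2, the hen with the most MT3 and MT4, had the lowest MTF1 value, but close to that of FF1, and the groups overlapped. The log2 fold change of MTF1 was -0.01 ± 0.31 (edgeR quasi-likelihood, adjusted p = 0.997), with a sign that changed under other scalings. These are transcript levels, and the activity of the MTF1 protein was not measured.

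The members of that list with the smallest p were ATOX1, a copper chaperone, the zinc importers of the ZIP family SLC39A9 and SLC39A13, and SLC30A5, which carries zinc into the secretory pathway. Their log2 fold changes were -0.48 ± 0.29, -0.43 ± 0.29, -0.34 ± 0.24 and -0.36 ± 0.25. In SLC39A9, SLC39A13 and SLC30A5, 3 of the 9 tested, both FF hens lay below all RF hens, as in 13.9% of all tested genes. SLC30A5, for example, had 49.8 and 51.6 CPM in FF1 and FF2, and 67.8, 70.2 and 57.0 CPM in RF1, RF2 and RF3. It was highest in RF2, though close to RF1, and lowest in FF1. ATOX1, SLC39A9 and SLC39A13 were lowest in FF2, as the metallothioneins were, at 82.2, 98.5 and 52.4 CPM, but highest in RF3.

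Iron handling gave 9 tested genes, of which 6 lay below 0 with a median log2 fold change of -0.34. Both FF hens lay below all RF hens in 5 of the 9 and above them in 1, against 13.9% and 13.1% of all tested genes. The quasi-likelihood test of edgeR called 0 (0 at an unadjusted p under 0.05, and 0 by DESeq2). HMOX1, the haem oxygenase that metals and oxidants also induce in vertebrates, had 406 and 391 CPM in FF1 and FF2, and 557, 529 and 716 CPM in RF1, RF2 and RF3, a log2 fold change of -0.59 ± 0.29. The FF hens were close together and below the RF hens, and RF2 was the lowest RF hen. The iron-responsive aconitase ACO1 lay at -0.61 ± 0.32, the ferritin receptor for autophagy NCOA4 at -0.34 ± 0.28 and the transferrin receptor TFRC at 0.47 ± 0.32.

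Glucocorticoid and fasting genes also lay mostly lower in FF. Of 26 listed genes 14 were tested, 10 of them below 0, with a median log2 fold change of -0.51. The quasi-likelihood test of edgeR called 0. At an unadjusted p under 0.05 it placed 4 members lower in FF, where 4.94% of all tested genes were, and 3 were called by DESeq2 as lower, where 1.11% of all genes were. Both FF hens lay below all RF hens in 7 of the 14, against 13.9% of all tested genes. This list, like the others, was chosen with earlier results of these data known. Its counts beside the shares of all genes are therefore a description and not a test of the list. The median was -0.99 without FF1. The 4 with the smallest p were PCK1, which commits carbon to gluconeogenesis, the binding protein IGFBP1, the cyclic AMP-responsive factor CREM and the coactivator PPARGC1A, at log2 fold changes of -2.83 ± 0.72, -2.93 ± 0.77, -1.89 ± 0.52 and -2.26 ± 0.70. Single hens moved 3 of these: PCK1 lay at -2.17 without FF1 and -3.95 without FF2, IGFBP1 at -3.69 without FF1 and -1.94 without RF3, and PPARGC1A at -1.64 without RF1. None of the 4 was highest in RF2. PCK1 and PPARGC1A were highest in RF1, at 243 and 30.8 CPM, and IGFBP1 and CREM in RF3, at 438 and 114 CPM. The glucocorticoid receptor NR3C1, named after its values were seen, had 40.8 and 31.6 CPM in FF1 and FF2, and 53.9, 47.0 and 54.9 CPM in RF1, RF2 and RF3, or -0.52 ± 0.26 on the log2 scale (edgeR quasi-likelihood, adjusted p = 0.582).

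Acute phase and cytokine signalling genes lay on both sides. Of 38 listed genes 20 were tested, 12 of them below 0, with a median log2 fold change of -0.19 (0.03 without FF1 and 0.06 without RF2). The quasi-likelihood test of edgeR called 0. At an unadjusted p under 0.05 it placed 2 members higher and 2 lower in FF, where 4.41% and 4.94% of all tested genes were. DESeq2 called 1 member, CISH, as lower, against 1.11% of the genes it tested. Both FF hens lay below all RF hens in 6 of the 20 and above them in 1, against 13.9% and 13.1% of all tested genes. The list holds CISH at -2.09 ± 0.56 and NFKBIA, the inhibitor of NF-kappaB, at -2.19 ± 0.87, against NFKB1 at 0.68 ± 0.26 and the kinase JAK1 at 1.10 ± 0.43. NFKBIA lay at -0.71 without RF3, and JAK1 at 0.41 without FF2. NFKBIA was highest in RF3, at 976 CPM, and not in RF2, at 160 CPM.

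Among genes of oxidative stress defence the smallest p was that of TXNRD1, a thioredoxin reductase, which lay higher in FF at 0.66 ± 0.28. Of 20 tested genes 13 lay below 0, with a median log2 fold change of -0.13 (-0.54 without FF1 and 0.19 without FF2). The quasi-likelihood test of edgeR called 0, and DESeq2 called 0, where edgeR called 0.0464% of all tested genes and DESeq2 1.11% as lower. At an unadjusted p under 0.05 the edgeR test placed 1 of the 20, TXNRD1, higher in FF, where 4.41% of all tested genes were. Both FF hens lay below all RF hens in 3 of the 20 and above them in 2, against 13.9% and 13.1% of all tested genes. NFE2L2, the factor that drives many antioxidant genes, lay at 0.61 ± 0.28, its partner MAFF at -1.04 ± 0.45 and the glutathione peroxidase GPX1 at -1.06 ± 0.50. Without FF1 and without FF2, MAFF lay at -2.06 and -0.47 and GPX1 at -2.04 and -0.47. MAFF had 31.4 and 10.5 CPM in FF1 and FF2, and 40.5, 52.9 and 38.8 CPM in RF1, RF2 and RF3, so its highest and lowest hens were those of the metallothioneins.

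Markers of other liver cells were read beside MT3 and MT4, since in whole liver fewer cells of a type and less RNA per cell cannot be told apart. Macrophage markers (7 of 13 in the table, all 7 above 0 in every hen) summed to 3971 and 2430 CPM in FF1 and FF2, and to 3500, 5799 and 4271 CPM in RF1, RF2 and RF3. They were thus highest in RF2 and lowest in FF2, as the metallothioneins were, but FF1 lay above RF1. The sum rested on CD74, MARCO and CTSS, while TIMD4 had 114 and 218 CPM in FF1 and FF2, and 159, 154 and 203 CPM in RF1, RF2 and RF3. Sinusoidal endothelium markers (3 of 12 in the table, all above 0) summed to 161 and 202 CPM in FF1 and FF2, and to 318, 273 and 271 CPM in RF1, RF2 and RF3. Both FF hens lay below all RF hens in this sum, in KDR and in the low LYVE1, as in 13.9% of all tested genes. KDR lay at -1.03 ± 0.36 and LYVE1 at -0.93 ± 0.39 on the log2 scale (edgeR quasi-likelihood, adjusted p = 0.485 and 0.524). At an unadjusted p under 0.05 by that test, 2 of the 3 were lower in FF, as were 4.94% of all tested genes. CDH5 overlapped, with 85.5 and 143 CPM in FF1 and FF2, and 141, 139 and 171 CPM in RF1, RF2 and RF3.

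Heterophil markers (4 of 10 in the table) summed to 70.6 and 69.4 CPM in FF1 and FF2, and to 120, 209 and 42.997 CPM in RF1, RF2 and RF3. Erythroid markers (10 of 17 in the table, SLC4A1 at 0 in every hen) summed to 3729 and 3658 CPM in FF1 and FF2, and to 2791, 4268 and 1122 CPM in RF1, RF2 and RF3. Bile duct markers (6 of 9 in the table, KRT7 at 0 in every hen) summed to 241 and 129 CPM in FF1 and FF2, and to 265, 278 and 239 CPM in RF1, RF2 and RF3, so RF2 was highest and FF2 lowest here too. Stellate cell and fibroblast markers (7 of 13 in the table) summed to 1335 and 554 CPM in FF1 and FF2, and to 767, 758 and 546 CPM in RF1, RF2 and RF3. All 6 tested members of that list lay higher in FF on average, and their median log2 fold change was 0.64. Lymphocyte markers (10 of 13 in the table) summed to 161 and 257 CPM in FF1 and FF2, and to 128, 195 and 156 CPM in RF1, RF2 and RF3. From the lowest to the highest hen these marker sums spanned 1.98-fold (endothelium) to 4.87-fold (heterophil), with 2.39-fold for macrophages, against 27.4-fold for MT4. A sum over several genes can hide a wider range in a single member. The heterophil marker LYG2 had 21.1 and 52.0 CPM in FF1 and FF2, and 64.5, 125 and 4.44 CPM in RF1, RF2 and RF3. It was thus also highest in RF2, but lowest in RF3. The part of these cell markers in the metallothionein difference was not tested.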

How the data were processed

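Livers of 2 FF and 3 RF hens were measured by strand-specific RNA sequencing, with RNA integrity numbers above 8, per the labels' protocols. The authors deposited estimated counts per gene symbol, with column totals that differed between hens. Per the submitters' processing notes, build galGal4 is named beside TopHat2 2.0.13, FastQC, edgeR and Cuffdiff 2.2.1, whose roles are not stated. The annotation, the use of strand in counting and the treatment of reads that fit several genes are unstated in the sources used here.

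Counts were rounded to whole numbers (51 of 6286 entries, 0.811%, had a non-whole value; MT3 and MT4 were whole). The filterByExpr function (minimum count 10) kept 4309 genes. After TMM scaling, edgeR 4.0.16 in R 4.3.3 fitted feeding group as the only term with its two-sided quasi-likelihood test, with Benjamini-Hochberg adjustment and a threshold of 0.05. CPM uses the scaled library sizes, and log2 CPM a prior count of 2. The SE of an edgeR log2 fold change was derived as its absolute value divided by the square root of the test statistic. P-values test the difference between the feeding groups against the spread between single hens. The edgeR quasi-likelihood fit alone was tried on simulated counts, with dispersions taken from the trend across genes and not from each gene. The comparisons of the ratio and of the profiles were not simulated. Alternatives used DESeq2 1.42.0, limma-voom (limma 3.58.1) and the settings given below.

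The members and lists were chosen with earlier results of these data known. Up to 4 members of each list with the smallest p, the 3 nearest tested genes on each side and the 5 genes most alike were named, with exceptions marked. List members were matched by exact symbol. RefSeq GRCg7b, another build than galGal4, was used for names and gene order alone.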

Additional observations from a re-analysis of the deposited data

How the results depend on the processing

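MT3, MT4 and their sum lay below 0 under all 14 alternatives, at -3.66 to -1.65, -3.92 to -1.72 and -3.91 to -1.72 on the log2 scale, which are also their ranges when single hens were left out. With both FF hens below all RF hens in each, these alternatives left little room for the sign to change. The adjusted p over these alternatives ran from 0.00951 to 0.747 for MT3, from 0.0307 to 0.896 for MT4 and from 0.0280 to 0.898 for the sum. DESeq2 called all of them (-2.86, -2.48 and -2.49), and the edgeR likelihood ratio test called MT3 (-2.87, adjusted p = 0.0429, against 1.07% of tested genes called lower in FF) but not MT4 (adjusted p = 0.128). The cause of the difference between the tests was not tested.

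Over the whole table edgeR's quasi-likelihood test called 2 genes, and the count was 6 with no filter, 1 with a filter of 5 CPM in 2 libraries, 79 by DESeq2, 76 by the likelihood ratio test and 6 with the replicate block. Leaving out single hens gave 0 to 8, with 0 without FF2, RF1 or RF2 (311, 235 and 236 at an unadjusted p under 0.05, edgeR). The replicate numbers do not mark shared hens, and deviations of same-numbered hens correlated across genes at -0.14 and -0.36. With the replicate block MT3 lay at -2.79, MT4 at -2.55 and their sum at -2.56, each short of the threshold as before.

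The difference in the log2 ratio of MT3 to MT4 was near 0 and had no stable sign. It was -0.01 with a prior count of 0.5, and -0.41 to 0.47 when single hens were left out. MTF1 changed sign with upper quartile scaling (0.04), with library totals alone (0.10), with the filter of 5 CPM (0.01) and without FF1 or RF1 (0.19 for each), and ran from -0.21 to 0.19 over the fits that left out 1 hen. NUDT21 changed sign with the replicate block (-0.04) and without RF3 (-0.03), and NUP93 without FF1 (-0.07, in a range of -0.07 to 0.32 over those fits). Library totals alone moved the median log2 fold change of all genes to 0.11. The 23 counts of MT3 in FF2 and the number of hens limit precision.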
